A study of Canis lupus familiaris with 3 samples.

Results

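The subject is a set of 7 genes of glucose uptake, glycolysis and the response to low oxygen, measured in dog kidney cells that carry the transcription factor E47. They are the glucose transporter genes SLC2A1 and SLC2A3, the enzyme genes LDHA and ENO1, the transcription factor gene HIF1A, the stress gene DDIT4 and the growth factor gene VEGFA. A spot of the array was taken for a member when the platform annotation gave it that symbol and no other. This found all 7 genes among 5508 named genes with a value on every array, on 24 of 27648 spots, which hold 11 clones. All 24 spots had a value on all 3 arrays, and 0 spots with several symbols included a member. The members were chosen because earlier results on the same arrays showed the transporters low and the enzymes high. Their log2 ratios are therefore described and not tested.

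MDCK is an epithelial line from dog kidney. Transfectants carrying E47, a helix-loop-helix repressor of E-cadherin, were compared with MDCK-CMV control cells, and cells of both kinds grew in DMEM with serum. Whether the transfectants were a single clone or a pool, and how much glucose or oxygen the cultures had, was information not given in the sources used here. RNA extraction 1 of E47 cells was hybridised on 1 array, in Cy5. Extraction 2 was hybridised on 2 arrays, once in Cy3 and once in Cy5, with control RNA in the other dye each time. The 2 arrays of extraction 2 were averaged, so n = 2 extractions, and the SD is the spread between them. The design text calls them different RNA extractions, while the labels name the cells MDCK-E47_1 and MDCK-E47_2. Whether they were separate clones or cultures is therefore unknown. The precision of every value is limited by the small number of arrays.

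Each value is the log2 ratio deposited for 1 spot on 1 array, stated here as E47 over control. No label states that direction, and it was inferred as likely because the labels list E47 cells as channel 1 and the title calls E47 a repressor. If it ran the other way, every higher would become lower. The log base is not stated either. Read as natural logarithms, the mean of SLC2A1 would be a 5.77-fold and that of LDHA a 3.94-fold difference, instead of 3.37-fold and 2.59-fold. The ratios hold no expression level, so the levels of genes cannot be ranked, nor can the presence of a cell type be checked. The 7 measured markers of kidney epithelium, with the E-cadherin gene CDH1 among them, had log2 ratios from −3.59 to −0.14. In the direction taken, 5 of the 7 fell. Of 8 measured markers of fibroblasts, endothelium and leukocytes, COL1A2 at 0.68 and PTPRC at 1.03 rose, and the other 6 did not pass the test. The part of these changes in the results on sugar genes was not tested.

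Glucose enters most mammalian cells by facilitated diffusion through transporters of the SLC2A family. Glycolysis then splits it to pyruvate in the cytosol, and lactate dehydrogenase turns pyruvate into lactate. HIF-1 is a dimer of an oxygen-sensitive alpha subunit, encoded by HIF1A, and a stable partner, encoded by ARNT. With oxygen present, prolyl hydroxylases mark the alpha subunit for destruction by the VHL ligase, so HIF-1 activity is set largely at the protein. SLC2A1, SLC2A3, LDHA, ENO1, DDIT4 and VEGFA are all known as HIF-1 target genes.

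The transporters were low and the enzymes high on each of the 3 arrays. The mean log2 ratio of SLC2A1 and SLC2A3 was −1.31 in extraction 1, and −1.65 on the Cy3 array and −1.30 on the Cy5 array of extraction 2. The mean of LDHA and ENO1 was 1.22, 1.20 and 1.21 on the same arrays. The enzyme mean thus moved little between arrays, but its 2 genes did not. On the Cy3 array LDHA was lowest, at 0.99, and ENO1 highest, at 1.41, so their movements averaged out. Between extractions the SD was 0.26 for LDHA and 0.23 for ENO1, beside 0.014 for their mean (n = 2). The contrast below is built from such means. The transporter mean was lowest on the Cy3 array. Transporters minus enzymes came to a log2 difference of −2.61 ± 0.10 (SD, n = 2 extractions), which is a 6.11-fold difference between the ratios of the pairs of genes. In all 36 comparisons of 1 of 3 transporter clones with 1 of 4 enzyme clones on 1 array, the transporter clone had the lower log2 ratio. The differences ran from −4.07 to −1.54. The members were chosen for this contrast, so the separation is a description.

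**Figure D1:**
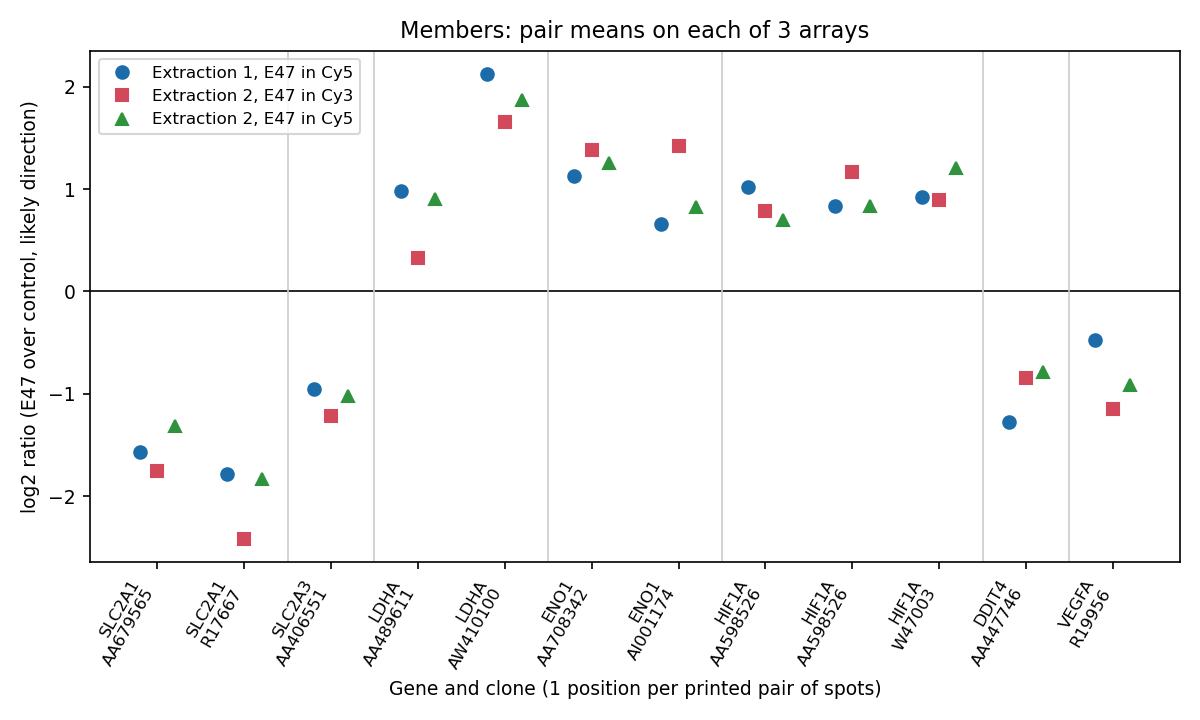
Log2 ratio of E47 over control for the 7 members, with 1 position on the horizontal axis for each clone at each place where a pair of spots was printed, and 1 point per array (mean of the pair). All points of SLC2A1, SLC2A3, DDIT4 and VEGFA lie below 0 and all points of LDHA, ENO1 and HIF1A above it, and the LDHA clones are 1.15 apart on average.

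SLC2A1 encodes GLUT1, the basal glucose transporter of most cell types. Its log2 ratios were −1.67, −2.09 and −1.58 on the array of extraction 1 and then the Cy3 and the Cy5 array of extraction 2, the order used for all triplets that follow. The Cy3 array gave the lowest value and the Cy5 arrays lay close to each other. The mean was −1.75 ± 0.11 (SD, n = 2), or 3.37-fold lower in E47 cells. By mean log2 ratio SLC2A1 ranked 22 from the bottom of 5508 named genes, and by array it ranked 51, 10 and 38. Its clones gave means of −1.95 (EST R17667) and −1.55 (EST AA679565). Both clones were lowest on the Cy3 array, with −2.42 and −1.76. The difference of −0.51 between the Cy3 and the Cy5 array of extraction 2 was larger in size than that of 92.8% of named genes, for which the median size was 0.167. As Cy3 and Cy5 arrays also differ in the dye, an effect of dye and an effect of array cannot be told apart here.

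SLC2A3 encodes GLUT3, a transporter with high affinity for glucose that is best known from neurons. It was measured by 1 clone, EST AA406551, on 2 adjacent spots. The log2 ratios were −0.95, −1.21 and −1.02, with a mean of −1.04 ± 0.12 (SD, n = 2), or 2.05-fold lower. SLC2A3 again had its lowest value on the Cy3 array, and it lay above SLC2A1 on every array.

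LDHA encodes the lactate dehydrogenase subunit of skeletal muscle and of strongly glycolytic cells. Its log2 ratios were 1.56, 0.99 and 1.39, with a mean of 1.37 ± 0.26 (SD, n = 2), or 2.59-fold higher in E47 cells. Its lowest value was on the Cy3 array, where ENO1 had its highest. The size of the LDHA ratio depended on the clone. EST AW410100 gave 2.13, 1.66 and 1.87, and EST AA489611 gave 0.99, 0.32 and 0.90. The first clone was above the second on every array, and their means of 1.94 and 0.80 differed by 1.15. That gap was larger than the 0.368 between extractions of the gene.

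ENO1 encodes alpha-enolase, which makes phosphoenolpyruvate in glycolysis. Its log2 ratios were 0.89, 1.41 and 1.04, with a mean of 1.06 ± 0.23 (SD, n = 2), or 2.08-fold higher. EST AA708342 gave 1.13, 1.39 and 1.25. EST AI001174 gave 0.66, 1.43 and 0.83, so the clones lay together on the Cy3 array and apart on both Cy5 arrays.

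HIF1A had the steadiest ratio of the 7 members. The log2 ratios were 0.93, 0.95 and 0.91, with a mean of 0.93 ± 0.0027 (SD, n = 2), or 1.90-fold higher. This small SD came from averaging over 6 spots. One clone, EST AA598526, was printed at 2 places, which gave 1.02, 0.79 and 0.69 at the first and 0.83, 1.16 and 0.83 at the second. EST W47003 gave 0.93, 0.90 and 1.21. Each place taken alone had an SD between extractions of 0.20, 0.12 or 0.09. The like values for single printed pairs were 0.02 and 0.25 for SLC2A1, 0.26 and 0.26 for LDHA, and 0.13 and 0.33 for ENO1. SLC2A3, DDIT4 and VEGFA, with 1 pair each, had 0.12, 0.32 and 0.40. The dye-swap arrays ran in opposite orders at the places, with Cy3 minus Cy5 at 0.09 and 0.33 for the first clone and −0.31 for the other.

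DDIT4 encodes REDD1, an inhibitor of the growth kinase complex mTORC1 that is induced by low oxygen and by other stresses. Its log2 ratios were −1.27, −0.84 and −0.79, from 1 clone, EST AA447746. The value of extraction 1 was the lowest and both arrays of extraction 2 lay close together. The mean was −1.04 ± 0.32 (SD, n = 2), or 2.06-fold lower. The gap of 0.456 between extractions was larger than that of 92.5% of named genes.

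VEGFA encodes the vascular endothelial growth factor, a secreted signal to endothelial cells. Its log2 ratios were −0.47, −1.15 and −0.91, from 1 clone, EST R19956. Extraction 1 gave the value nearest to 0, opposite to DDIT4, which was lowest there. The mean was −0.75 ± 0.40 (SD, n = 2), or 1.68-fold lower. By array VEGFA ranked 729, 49 and 165 from the bottom of the named genes, the widest span of ranks among the 7 members.

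Paired spots of a clone printed side by side agreed closely for all members. Over the 12 printed pairs and 3 arrays, no 2 neighbouring spots differed by more than 0.11 on the log2 scale. The range over the arrays was larger than the gap between neighbouring spots for 6 members, from 0.26 for SLC2A3 to 0.68 for VEGFA. For HIF1A, averaged over 6 spots, it was 0.04, below its largest gap between neighbours of 0.11. In units of each array's SD over the named genes (0.554, 0.426 and 0.476), SLC2A1 lay at −3.02, −4.90 and −3.31. LDHA lay at 2.81, 2.32 and 2.91 in the same units.

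**Figure D2:**
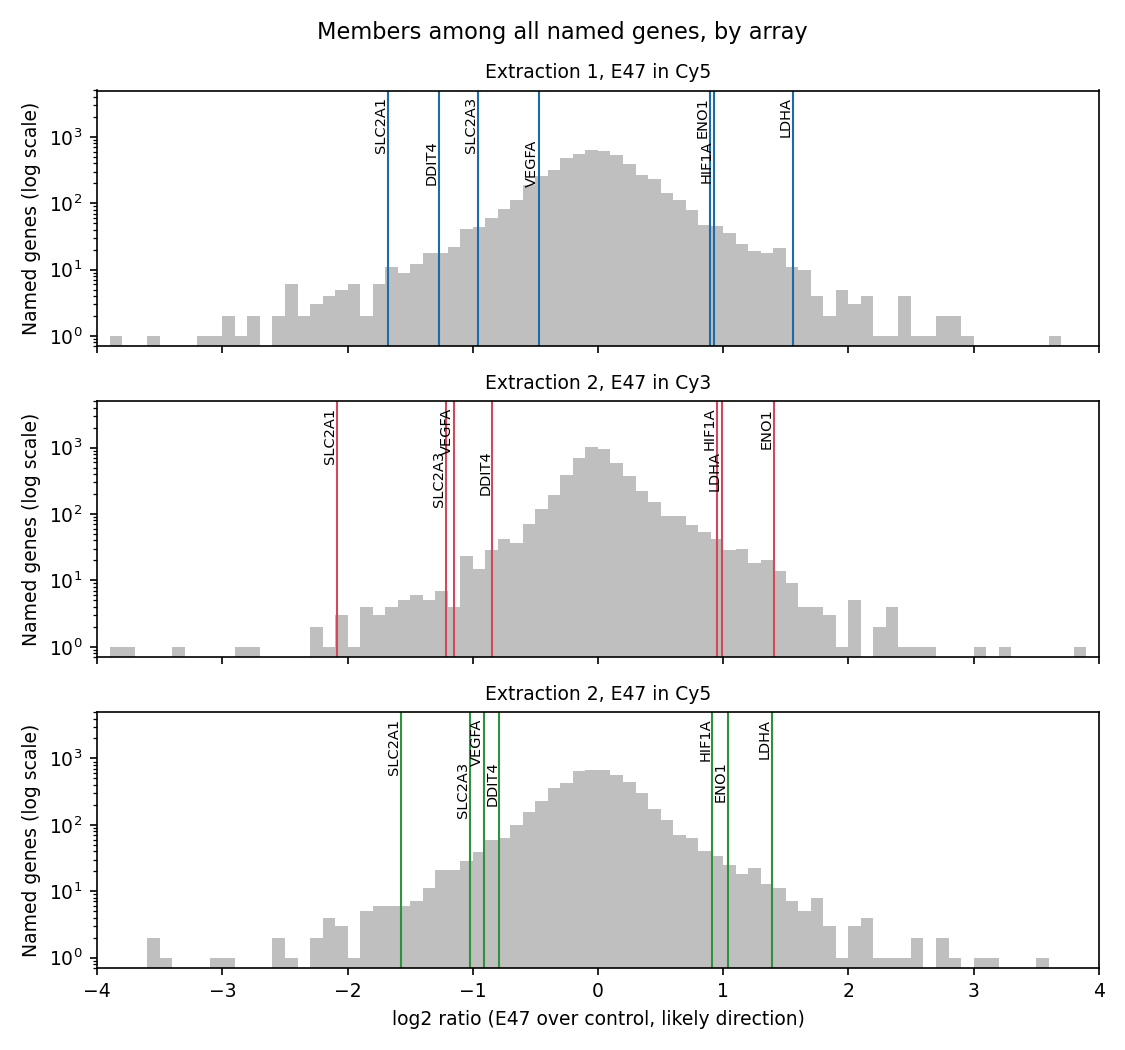
Number of named genes (log scale) against the log2 ratio of E47 over control, for each array, with a vertical line at each of the 7 members and the horizontal axis limited to the range from −4 to 4. SLC2A1 is the lowest member on every array, and VEGFA moves from −0.47 in extraction 1 to −1.15 on the Cy3 array of extraction 2.

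All features were fitted together with limma, and a gene was called when its Benjamini-Hochberg adjusted p was under 0.05. The fit called 9.19% of named genes, 5.34% as higher and 3.85% as lower. Among the members it called 3 higher and 3 lower. VEGFA was not called. These calls are part of how the members came to be chosen, and nothing is read from their count. Without the Cy5 array of extraction 2 only SLC2A1 of the 7 was called, and without its Cy3 array the same 6 were. With scaled arrays SLC2A3 and ENO1 were not called, and with spots lacking a value on an array kept DDIT4 was not. VEGFA was called in 3 settings, namely with the 3 arrays as replicates, at a threshold of 0.10 and with named genes tested alone.

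The other genes of the pathway were taken from 10 lists. Of 205 further genes listed, 102 were measured, and 7 rose, 4 fell and 91 did not pass the limma test. That is 10.8% called, beside 9.19% of all named genes. The median log2 ratio of the 102 genes was −0.05, beside −0.02 for all named genes. Before adjustment, a limma p under 0.05 was reached by 35.6% of all named genes, 17.4% higher and 18.2% lower, and by 24 higher and 25 lower genes of the 102. The unadjusted counts of the single lists are to be read against those shares. Of the 102 genes 70.6% had the same sign on all arrays, beside 63.3% of all named genes. The counts depended on the array: without the Cy3 array of extraction 2, 12 genes rose and 13 fell, and without its Cy5 array 3 rose and 1 fell. The genes still called without the Cy5 array were LDHC, GBE1, SESN1 and ATF4.

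The other sugar transporters, and TXNIP in the same list, had mean log2 ratios below 0 without passing the test. In the transporter list, 6 further genes were measured, with a median of −0.40, and 5 of them were below 0 on all 3 arrays. None of the 6 passed the limma test, while before adjustment a limma p under 0.05 was reached by 4 lower and 0 higher genes. Of all named genes, 18.2% were lower and 17.4% higher by that measure. SLC2A9, a urate and sugar transporter, was at −0.57 ± 0.14 (SD, n = 2; limma adjusted p = 0.0582). SLC2A5, the fructose transporter, was at −0.50 ± 0.10 (limma adjusted p = 0.0629). TXNIP, an arrestin-like protein that draws GLUT1 away from the cell surface, was at −0.52 ± 0.25, with −0.70, −0.04 and −0.65 on the arrays (limma adjusted p = 0.0933). These 3 genes had larger sizes on the Cy5 arrays than on the Cy3 array, the reverse of SLC2A1 and SLC2A3. The median size over all named genes was likewise larger on the Cy5 arrays, at 0.248 and 0.221, beside 0.154 on the Cy3 array. From the Cy5 arrays alone all 3 passed, with limma adjusted p of 0.0345, 0.0398 and 0.0345 for SLC2A9, SLC2A5 and TXNIP. That setting called 471 of 5508 named genes as lower, beside 212 in the main fit. SLC2A2, the transporter of liver and kidney tubules, was at −0.30 with clones at −0.64 and 0.03. The intracellular transporter SLC2A8 was at −0.12 with clones at −0.34 and 0.11, and the insulin-responsive SLC2A4 was at −0.06. The dog gene table holds no SLC2A5.

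Among the glycolysis genes, ENO1 was the one that the fit called. Of 12 other measured genes none passed the limma test, with a median log2 ratio of −0.04, and before adjustment a limma p under 0.05 was reached by 3 higher and 2 lower genes. Along the pathway, TPI1 (triosephosphate isomerase) was at 0.49 with 0.46, 0.54 and 0.52 on the arrays. PKM, a pyruvate kinase, was at 0.31. The aldolase ALDOA was at −0.14, and PGK1, the phosphoglycerate kinase known as a HIF-1 target, at 0.07. GAPDH, often used as a reference gene, was at −0.61 ± 0.33 (SD, n = 2; limma adjusted p = 0.0936). Its Cy3 array gave −1.33 and the Cy5 arrays −0.38 and −0.36. PFKFB1, a regulator of phosphofructokinase, had the largest mean size at −1.29 ± 1.32, but its arrays differed in sign, with −2.23, 0.24 and −0.96 (limma adjusted p = 0.173).

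**Figure D3:**
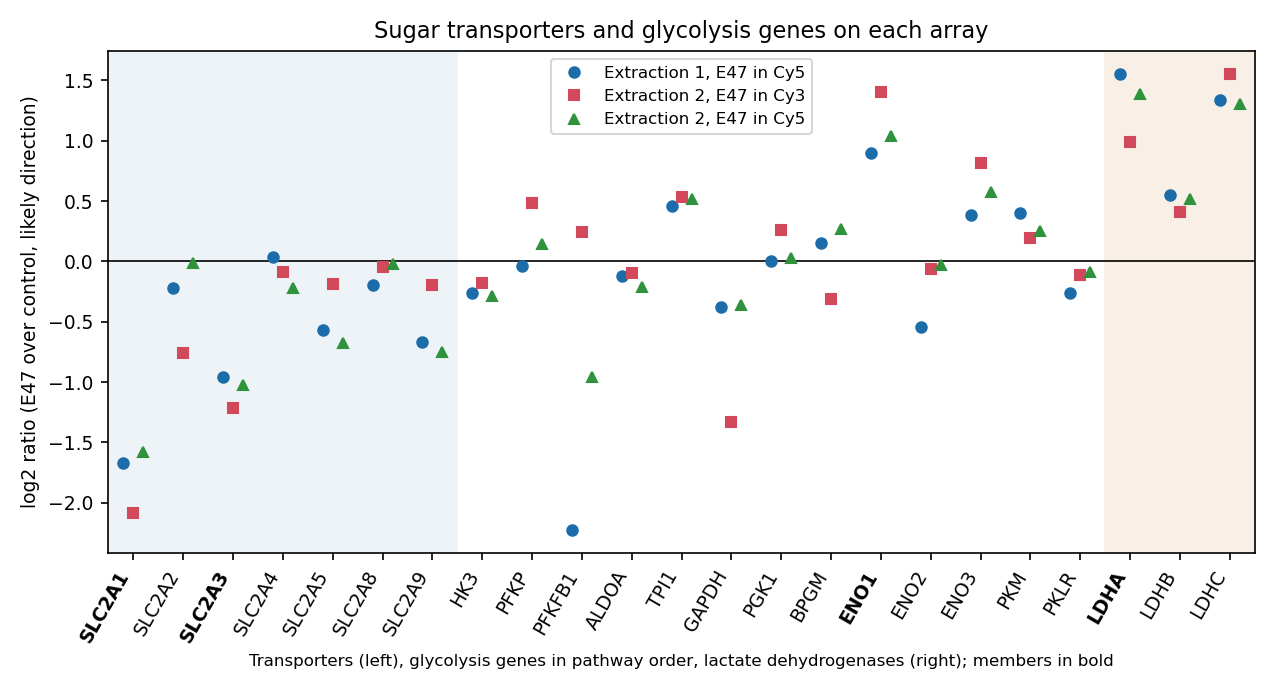
Log2 ratio of E47 over control on each of 3 arrays for all measured SLC2A transporters, glycolysis genes in pathway order and lactate dehydrogenases, with members in bold. The transporters lie below 0 except SLC2A4 at 0.04 in extraction 1, while glycolysis genes lie on both sides and the 3 lactate dehydrogenases lie above 0.

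The relatives of the enzyme members were uneven. LDHC, the lactate dehydrogenase of testis, rose with a log2 ratio of 1.38 ± 0.07 (SD, n = 2; limma adjusted p = 0.0197), and its arrays gave 1.33, 1.56 and 1.30. LDHB, the heart-type subunit, was at 0.51 ± 0.07 (limma adjusted p = 0.058), and passed from the Cy5 arrays alone at 0.0418. The human LDHC clone may bind related dog transcripts, LDHA among them, so the ratio cannot be assigned to LDHC alone. The muscle enolase ENO3 was at 0.54 ± 0.22 (limma adjusted p = 0.0804) and the neuronal enolase ENO2 at −0.29 ± 0.35 (limma adjusted p = 0.261). In the list on the fate of lactate and pyruvate, LDHC was the 1 gene of 7 that passed. Of the others there besides LDHB, the 4 genes PDHA1, PDHA2, PDK2 and PDP1 lay between −0.11 and 0.29. The lipoamide dehydrogenase DLD was lowest, at −0.18, with clones at −0.40 and 0.04.

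Of 13 measured genes of gluconeogenesis, glycogen and the pentose phosphate path, 1 rose, 1 fell and 11 did not pass the limma test, with a median log2 ratio of −0.27. Before adjustment a limma p under 0.05 was reached by 2 higher and 5 lower genes. GBE1, the glycogen branching enzyme, rose to 1.30 ± 0.04 (SD, n = 2; limma adjusted p = 0.0197), with 1.33, 1.51 and 1.04 on the arrays. PCK1, the cytosolic enzyme that starts gluconeogenesis from oxaloacetate and is strong in kidney tubules, fell by 0.84 on the log2 scale (SD 0.15, limma adjusted p = 0.0335). It lost its call without the Cy5 array of extraction 2, at 0.108. In the list of the TCA cycle, 1 of 9 genes fell and none rose by limma, and before adjustment a limma p under 0.05 was reached by 5 higher and 1 lower of the 9 genes. The gene that fell was ACO1, which encodes the cytosolic aconitase that also acts as an iron sensor, at −0.69 ± 0.02 (limma adjusted p = 0.0341, and 0.0963 without that Cy5 array).

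Among 10 measured genes of HIF subunits and oxygen sensing besides HIF1A, 1 rose and none fell by limma, and before adjustment a limma p under 0.05 was reached by 2 higher and 2 lower genes. EGLN3, a prolyl hydroxylase that acts on HIF alpha subunits and is itself induced by HIF, rose to a log2 ratio of 0.81 ± 0.0034 (SD, n = 2; limma adjusted p = 0.0269), with 0.82, 0.83 and 0.79 on the arrays. Without the Cy5 array of extraction 2 its adjusted p was 0.0642. EPAS1, the alpha subunit of HIF-2, was at 0.20 with clones at −0.03 and 0.42 (limma adjusted p = 0.196). VHL was at −0.27, with a range from −0.44 to −0.06 over the arrays.

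Among other HIF target genes outside glycolysis, those that passed were opposite in sign to DDIT4 and VEGFA. Some that did not pass, as VEGFA did not, shared their sign. Of 13 measured genes, 3 rose and none fell by limma, and before adjustment a limma p under 0.05 was reached by 4 higher and 2 lower genes. The lower genes were HMOX1 at −1.21 (limma adjusted p = 0.0827) and EDN1 at −0.57 (limma adjusted p = 0.106). Both were below 0 on all 3 arrays, as DDIT4 and VEGFA were. The median log2 ratio was 0.10. MXI1, an antagonist of MYC, rose to 0.75 ± 0.08 (SD, n = 2; limma adjusted p = 0.0326). BHLHE40, a helix-loop-helix repressor, rose to 0.74 ± 0.12 (limma adjusted p = 0.037), and BNIP3L, a mitochondrial protein of mitophagy, to 0.72 ± 0.01 (limma adjusted p = 0.0326). Without the Cy5 array of extraction 2 all 3 lost their calls, at limma adjusted p from 0.0687 to 0.0736. NDRG1, another gene known to rise in low oxygen, was at 0.10, and the collagen prolyl hydroxylase P4HA1 at 0.0047.

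Of 8 measured relatives and receptors of VEGFA none passed the limma test. Before adjustment a limma p under 0.05 was reached by 2 lower and 0 higher genes of the 8. Of all named genes, 18.2% were lower and 17.4% higher by that measure. VEGFC, the lymphatic growth factor, was at −0.52 ± 0.09 (SD, n = 2; limma adjusted p = 0.059), with −0.45, −0.61 and −0.56 on the arrays, and it passed from the Cy5 arrays alone at 0.0466. The placental growth factor PGF was at −0.25 (limma adjusted p = 0.15), VEGFB at −0.05 and VEGFD at −0.0091.

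Around DDIT4, 1 of 15 measured genes of the TSC and mTOR pathway rose and none fell by limma, and before adjustment a limma p under 0.05 was reached by 3 higher and 4 lower genes. SESN1, a sestrin that restrains mTORC1 as DDIT4 does, rose to a log2 ratio of 1.38 ± 0.15 (SD, n = 2; limma adjusted p = 0.0201), with 1.48, 1.17 and 1.38 on the arrays. DDIT4 and SESN1 therefore lay on opposite sides of 0 on every array, and SESN2 was at −0.18. The 4 genes lower before adjustment were PRKAA2 at −0.50, PIK3CB at −0.48, PRKAG1 at −0.30 and RHEB at −0.29. Besides SESN1, the higher genes were PRKAA1 at 0.37 and AKT2 at 0.36. TSC1, TSC2 and MTOR lay between −0.16 and 0.0068.

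Of 9 measured regulators of glycolysis genes, 2 fell and none rose by limma, and before adjustment a limma p under 0.05 was reached by 2 higher and 3 lower genes. ATF4, the transcription factor of the integrated stress response, fell by 1.69 on the log2 scale (SD 0.07, limma adjusted p = 0.0194), with −1.64, −1.76 and −1.73 on the arrays. DDIT4 and VEGFA are also known as ATF4 target genes, and a link between their ratios and that of ATF4 was not tested. MXD1, a further antagonist of MYC, fell by 0.73 (SD 0.11, limma adjusted p = 0.0367), with clones at −1.14 and −0.31, and lost its call without the Cy5 array of extraction 2, at 0.118. MYC itself was at 0.28, with clones at −0.51 and 1.07.

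**Figure D4:**
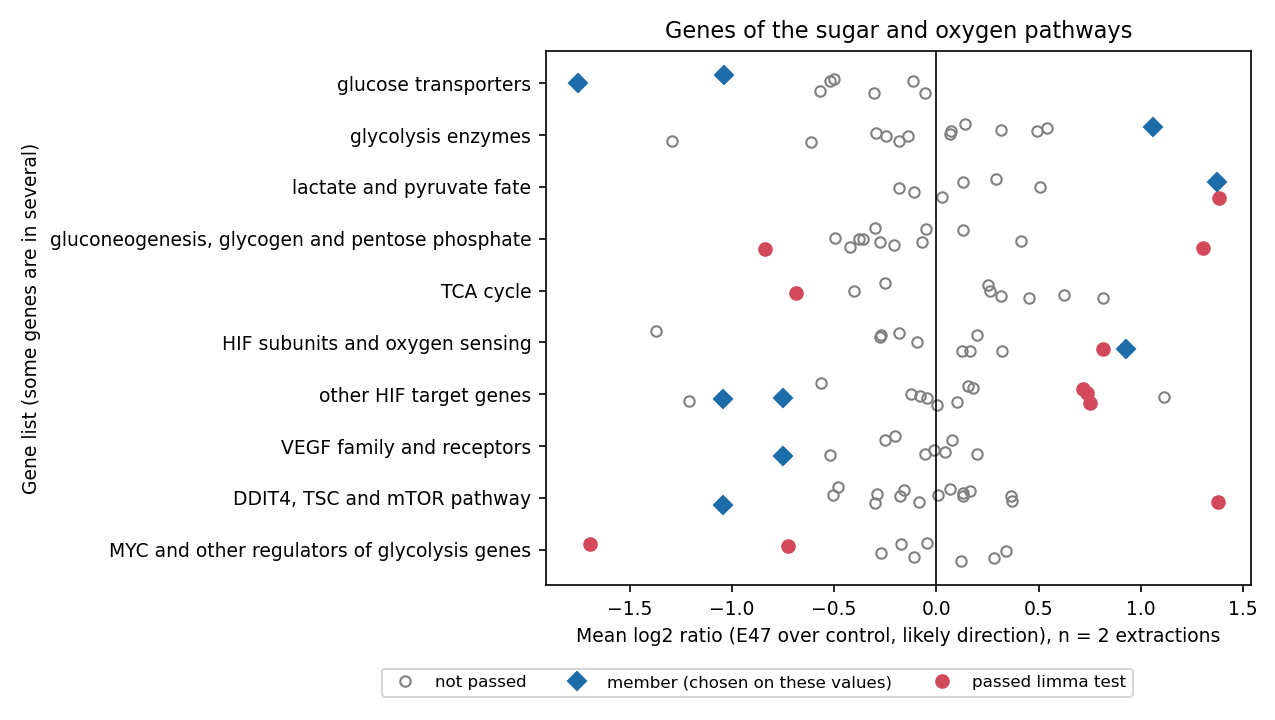
Mean log2 ratio of E47 over control (n = 2 extractions) for every measured gene of the 10 lists, with 1 row per list and a small random vertical offset; some genes are in several lists. Filled circles passed the limma test, open circles did not, and diamonds are the 7 members; the transporter row lies wholly below 0.

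The genes with values most like those of SLC2A1 were found by Euclidean distance over the 3 arrays. They were the scramblase gene PLSCR1 at 0.26, ATF4 at 0.368 and the peptidase gene DPP4 at 0.375. SLC2A3 was at a distance of 1.26 from SLC2A1. For LDHA the nearest genes were the adducin gene ADD3 at 0.178, the mannosidase gene MAN1A1 at 0.185 and SESN1 at 0.192, and ENO1 was at 0.855. The distance rests on 3 arrays of a single comparison.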

How the data were processed

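The deposited values are log2 ratios of the 2 channels of each array, 1 column per array, from human cDNA clone arrays hybridised with amplified RNA of dog cells. How the authors corrected background and normalized, and which log base and direction they used, was not given in the sources used here. Medians of the columns, at −0.0051, 0.0027 and 7.67e-04, lie near 0. Base 2 was taken, since the highest value, 7.80, is too large for a log10 ratio of a scanner. The dye-swapped array correlated with the others at r = 0.58 and 0.654 over spots, so no sign was turned. Signal intensities were not used here, so dim spots could not be filtered.

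The 23275 spots that each array had measured were averaged per gene symbol and array, and the 8500 spots without a single symbol stayed as features of their own. The dye swap was then averaged. limma 3.58.1 (R 4.3.3; lmFit, eBayes) tested the mean of the 2 extractions against 0 for all 14008 features, and p-values were adjusted by Benjamini-Hochberg. The control RNA was treated as a common reference, so p-values leave out its spread. With 2 extractions, p-values rest on the spread between them, which may be technical. In the eBayes step the spread of each feature was drawn towards that of all features, with 2.71 prior degrees of freedom. HIF1A, with an SD of 0.0027, thus had a limma standard error of 0.083.

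The symbols of 91.3% of the named genes, and of all 7 members, are in the dog gene table of UU_Cfam_GSD_1.0, used for names only. A human clone may bind several related dog transcripts, so close relatives cannot be told apart. No sequences were printed, and clone positions were not analysed here.

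The members and gene lists were chosen with earlier results of these data known. The genes named are the members, their measured relatives and partners, up to 6 genes of each list that passed, or else the 2 of largest size, and the 3 nearest genes of SLC2A1 and LDHA. Some others were named after their values were seen: TPI1, PKM, ALDOA, PGK1, PDHA1, PDHA2, PDK2, PDP1, DLD, VHL, NDRG1, P4HA1, EDN1, SESN2, TSC1, TSC2, MTOR, PRKAA1, PRKAA2, PRKAG1, PIK3CB, RHEB, AKT1, AKT2, RPS6KB2, MLXIPL, MYC, CA12, PFKM, TFRC, CITED2 and HMOX1. CDH1, COL1A2 and PTPRC came from the list of cell type markers. Figures were drawn with matplotlib 3.10.9.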

Additional observations from a re-analysis of the deposited data

How the results depend on the processing

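The 10 alternatives tried on the values of the 7 members left each sign as it was. These signs could hardly have changed, because each spot of a member was either positive throughout or negative throughout. Averaging or rescaling such values keeps their sign, and median centring shifted them very little. Keeping incomplete spots altered no member, and averaging clones first altered only HIF1A. The unchanged signs are therefore no test of robustness, and only the sizes could move. SLC2A1 stayed between −1.88 and −1.63, LDHA between 1.19 and 1.56, and VEGFA between −1.03 and −0.47. Transporters minus enzymes stayed between −2.69 and −2.53, and within −2.68 to −2.54 without 1 or the other extraction. Of the 102 other pathway genes, 7 rose and 4 fell. These counts became 12 and 13 from the Cy5 arrays alone, 3 and 1 when the Cy5 array of extraction 2 was left out, 14 and 7 with the 3 arrays as replicates, 15 and 13 at a threshold of 0.10, and 14 and 10 with named genes tested alone. Over all named genes, 294 rose and 212 fell, and these counts became 448 and 471, 74 and 35, 560 and 448, 653 and 591, and 624 and 551 in the same order. The cause was not tested. The 11 pathway calls were also called from the Cy5 arrays alone. Median over spots, spots lacking a value kept, median centring, scaled arrays and robust eBayes gave 7 or 8 higher and 4 lower. Without 1 extraction no test has residual degrees of freedom. The ratio of each array already pairs E47 with control RNA in the other channel. No further pairing was possible because the series has 1 group. Signal over background is unknown.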

Other observations

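Some spots of the same pathways lacked a value on at least 1 array and were left out. CA12, a carbonic anhydrase induced by HIF-1, was without a Cy3 value, and its 2 spots gave log2 ratios of 0.86 and 0.75 in extraction 1 and 0.69 and 0.48 on the Cy5 array of extraction 2. PFKM, the muscle phosphofructokinase, also lacked the Cy3 array, with 0.46 and 0.79 in extraction 1 and 0.57 and 0.57 on the Cy5 array of extraction 2. Other such spots were below 0. MLXIPL, a listed regulator, gave −0.57 and −0.55 in extraction 1 and −0.19 and −0.20 on the Cy3 array. A spot of RPS6KB2 gave −1.10 and −0.18 on the same arrays. An AKT1 clone gave −1.16 and −1.50 in extraction 1, but 0.10 on the Cy5 array of extraction 2. These genes are examples, and more had such spots.

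Clones of 3 genes linked to oxygen, iron or haem differed widely. TFRC, the transferrin receptor, had a mean log2 ratio of 1.11 with clones between −0.05 and 3.44. Its arrays differed in sign, with 1.59, −0.18 and 1.46. CITED2, which competes with HIF-1 for its coactivator, was at −1.37 with clones between −3.37 and −0.37. The arrays gave −1.95, −0.33 and −1.25 for CITED2. HMOX1, haem oxygenase, was at −1.21 with clones between −2.31 and −0.11, and −1.70, −0.49 and −0.96 on the arrays. None of these 3 passed the limma test.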
